A study of Mus musculus with 12 samples.

Results

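The Slc22 genes described here encode organic ion transporters of the SLC22 family. They were taken by name from the annotated probe sets of a liver array series: 8 genes were named (Slc22a3, Slc22a5, Slc22a7, Slc22a26, Slc22a27, Slc22a28, Slc22a29 and Slc22a30), and 7 of them have a probe set under their symbol among the 21212 of the arrays. Slc22a3 is not listed by the annotation table and was not analysed here. The groups were KK males, KK females, C57BL/6J (B6) males and B6 females, with 3 mice in each, 12 arrays in all. KK is an inbred strain that becomes obese and insulin resistant, written KK/HIJ in the strain label and KK/J in the source name, and B6 is a common laboratory strain. All mice were 8 weeks old and on chow, were housed alone for 3 days and were fasted for 4 hours, and RNA came from the large lobe of the perfused liver. No mouse carried an engineered allele or received an agent, per the labels, and the labels give no litter, scan date or hybridisation batch.

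SLC22 proteins sit in the plasma membrane and carry charged small molecules such as drugs, steroid conjugates, bile constituents, urate and carnitine. Slc22a7 encodes Oat2, an organic anion transporter of hepatocytes, and Slc22a5 encodes Octn2, the sodium-dependent carnitine transporter. Slc22a26 to Slc22a30 belong to a rodent expansion of organic anion transporter genes that lie side by side, and the substrates of their products are poorly known. In rodent liver many transporter and drug metabolism genes differ between the sexes, because males and females secrete growth hormone in different temporal patterns, which hepatocytes read through STAT5b, BCL6 and CUX2.

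In the RefSeq annotation of build GRCm38.p6, chromosome 19 carries Slc22a19, Slc22a26, Slc22a27, Slc22a28, Slc22a29, Slc22a30, Slc22a8 and Slc22a6 in this order. Slc22a5 is on chromosome 11 beside Slc22a21 and Slc22a4, and Slc22a7 is on chromosome 17. RefSeq promoters were matched for 6 of the 7 measured genes, as 300 bases from 250 before to 50 after the start assigned to the gene. The 5 promoters of the chromosome 19 genes are printed because these neighbours had different patterns by sex and strain. All lie on the minus strand and read 5′ to 3′ in the direction of the gene: Slc22a26 at chr19:7802618-7802917, Slc22a27 at chr19:7965978-7966277, Slc22a28 at chr19:8131933-8132232, Slc22a29 at chr19:8218851-8219150 and Slc22a30 at chr19:8405056-8405355. The windows of Slc22a27 and Slc22a29 lie inside the RefSeq spans of these genes, which reach to 7966517 and 8253375. Their positions thus count from a start inside the gene, and the sequence before the outer end of these genes was not searched. Capitals mark matches to the motifs searched.
Slc22a26: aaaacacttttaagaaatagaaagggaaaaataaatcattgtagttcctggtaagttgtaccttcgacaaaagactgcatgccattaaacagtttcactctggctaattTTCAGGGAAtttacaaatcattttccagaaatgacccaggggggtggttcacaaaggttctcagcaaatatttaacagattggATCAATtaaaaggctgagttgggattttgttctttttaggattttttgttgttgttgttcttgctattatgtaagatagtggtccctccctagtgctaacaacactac
Slc22a27: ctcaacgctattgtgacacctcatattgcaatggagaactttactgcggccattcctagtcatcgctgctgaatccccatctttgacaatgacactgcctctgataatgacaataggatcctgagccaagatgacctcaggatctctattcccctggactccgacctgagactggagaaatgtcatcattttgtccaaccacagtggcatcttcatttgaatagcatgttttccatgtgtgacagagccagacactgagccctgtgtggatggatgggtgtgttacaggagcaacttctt
Slc22a28: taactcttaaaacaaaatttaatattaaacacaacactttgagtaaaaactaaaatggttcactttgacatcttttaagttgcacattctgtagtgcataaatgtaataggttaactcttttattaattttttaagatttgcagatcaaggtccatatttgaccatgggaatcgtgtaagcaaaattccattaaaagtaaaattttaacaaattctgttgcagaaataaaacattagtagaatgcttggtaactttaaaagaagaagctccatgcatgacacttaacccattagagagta
Slc22a29: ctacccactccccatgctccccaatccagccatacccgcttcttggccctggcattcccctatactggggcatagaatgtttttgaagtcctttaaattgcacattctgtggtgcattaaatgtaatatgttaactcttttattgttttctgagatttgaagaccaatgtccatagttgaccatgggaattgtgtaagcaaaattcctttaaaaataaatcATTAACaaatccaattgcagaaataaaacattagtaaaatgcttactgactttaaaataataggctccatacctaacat
Slc22a30: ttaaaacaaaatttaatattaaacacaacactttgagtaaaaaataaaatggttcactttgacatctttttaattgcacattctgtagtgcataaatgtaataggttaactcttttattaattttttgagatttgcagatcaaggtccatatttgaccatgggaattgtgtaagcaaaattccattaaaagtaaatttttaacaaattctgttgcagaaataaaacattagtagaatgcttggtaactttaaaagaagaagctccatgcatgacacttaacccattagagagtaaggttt

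The motifs were searched on both strands. The Slc22a26 promoter held TTCAGGGAA, a match to the STAT5 motif TTCNNNGAA, starting at position -141, and ATCAAT, the HNF6 and CUX2 motif, starting at -58. Of all 32851 mouse promoters of this length, 8.3% held the STAT5 motif and 7.54% the HNF6 and CUX2 motif. The Slc22a29 promoter held ATTAAC at -29 from its assigned start, inside the gene's span. ATTAAC is the HNF1 core GTTAAT on the other strand and was found in 7.1% of all promoters. These 3 matches do not overlap each other. The Slc22a27, Slc22a28, Slc22a30 and Slc22a5 promoters held no match to these motifs, nor to CAAAGTCCA (HNF4, 0.47% of promoters), and none of the 6 promoters held the full palindromic HNF1 site (0.01% of promoters), the FXR inverted repeat (0.01%) or the PPAR direct repeat (0.04%). A match is a stretch of letters and not a measured binding site. By global alignment with free end gaps the Slc22a28 and Slc22a30 promoters were identical at 288 of 294 aligned positions (98.0%), with 6 mismatches and no gap. The Slc22a29 promoter matched that of Slc22a30 at 75.1% and that of Slc22a28 at 72.5%. The promoters of Slc22a26 and Slc22a27, which were both lower in B6 males than in B6 females, matched each other at 46.3%. That alignment covered 313 positions. The Slc22a5 promoter, from another chromosome, matched the cluster promoters at 40.9% to 48.5%, over 68 to 264 aligned positions. Its highest values came from the shortest alignments, with Slc22a28 (48.5%, 68 positions) and Slc22a30 (47.3%, 74 positions). The longer ones gave 40.9% to 44.3%. Since the aligned lengths differ and the Slc22a27 window lies inside the gene, these percentages do not decide whether Slc22a26 and Slc22a27 share promoter sequence.

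Values are log2 expression, so that a difference of 1 is a doubling. The array medians lay between 5.9 and 6.03 and the interquartile ranges between 2.64 and 2.97, and arrays of the same group correlated across probe sets at 0.992 to 0.996. Xist was lower in males than in females by -6.39 in KK and -5.96 in B6, and in each strain males exceeded females, with a call, in all 3 Y-linked genes measured. In females these Y-linked genes, which cannot be transcribed there, lay between 3.79 and 4.66, and that range is taken as the level of an absent transcript. The mean of the 5 measured hepatocyte markers lay between 13.39 and 13.50 in every array, and that of the 6 markers of kidney proximal tubule, where several SLC22 genes are also expressed, between 5.02 and 5.29. None of the 6 kidney markers was called by limma in any comparison, and none had an unadjusted p under 0.05. Of these markers, Slc22a12 is itself an SLC22 gene and is also counted with the rest of the family. Some kidney markers read above the absent range, with group means of 5.59 to 5.67 for Slc5a2 and 6.45 to 6.63 for Slc22a12. A value above the range, as for Slc22a29 and Slc22a8, thus does not show by itself that a transcript is present. Of the 5 hepatocyte markers, 1 was called higher and 1 lower in KK females than in B6 females, which the mean hides. In KK males 1 was called higher than in KK females. Markers of some other liver cells also moved with the groups. The mean of the 5 Kupffer cell markers spanned 7.40 to 7.84 in KK males, 8.32 to 9.05 in KK females, 8.00 to 8.68 in B6 males and 8.64 to 8.76 in B6 females, and 4 of the 5 were called lower in KK males than in KK females. Of 5 sinusoidal endothelial markers, 2 were lower in KK males than in KK females and 2 lower than in B6 males, and of 3 erythroid and neutrophil markers 1 was higher in KK in each sex and in males of each strain. In whole liver, fewer cells of a type and less RNA per cell cannot be told apart, and the part of these markers in the results below was not tested.

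A difference was called at an adjusted p under 0.05 in limma's test (two-sided, Benjamini-Hochberg adjustment over all 21212 probe sets). Errors are SDs over 3 mice for levels and standard errors (SE) of the fit for differences. Of the 7 measured genes, 3 were called between KK females and B6 females, where 6.5% of all probe sets were called. Slc22a28 was higher in KK females, and Slc22a26 and Slc22a27 were lower. Between KK males and B6 males 1 gene was called, Slc22a7, which was higher in KK (5.15% of all probe sets). Between males and females, Slc22a26 alone was called in KK (2.17% of all probe sets). In B6, Slc22a26 and Slc22a27 were lower and Slc22a28 was higher in males (1.03% of all probe sets). The members' median difference was 0.03 between KK and B6 females, 0.10 between KK and B6 males, -0.18 between KK males and females, and -0.32 between B6 males and females. The median over all probe sets lay within 0.03 of 0 in each of these comparisons.

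**Figure D1:**
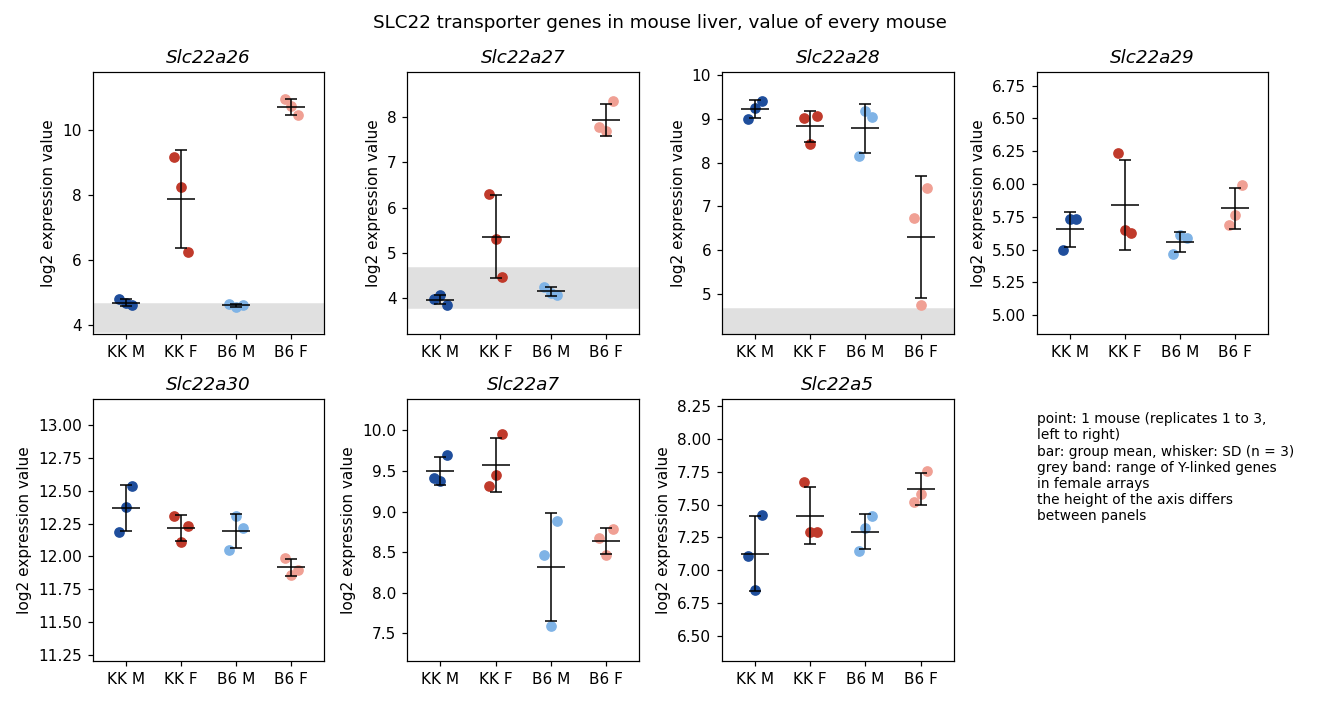
Log2 expression of the 7 measured Slc22 genes in each of the 12 livers; each panel is a gene, points are mice, bars are group means, whiskers are SDs (n = 3) and the grey band is the absent range, and the groups run KK males, KK females, B6 males, B6 females. Slc22a26 and Slc22a27 are low in all 6 males, while Slc22a28 is low only in B6 females. The panels have their own vertical ranges, and levels are not compared between genes.

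Slc22a26 had the largest difference of the 7 genes between B6 males and B6 females and between KK males and KK females. It read 4.80, 4.67 and 4.61 in KK males, 9.17, 8.23 and 6.23 in KK females, 4.65, 4.56 and 4.61 in B6 males and 10.94, 10.74 and 10.45 in B6 females. All 6 males lay within or just above the absent range, all 3 B6 females lay far above it, and the KK females lay in between, without overlap. Group means were 4.69 ± 0.10 in KK males, 7.88 ± 1.5 in KK females, 4.61 ± 0.04 in B6 males and 10.71 ± 0.25 in B6 females (SD, n = 3 each). From high to low the order was thus B6 females, KK females, KK males and B6 males. Of the neighbours in it only the males of the strains were not called, with a difference of 0.08 (KK minus B6, 95% interval -1.03 to 1.20). That interval rests on a spread pooled over all groups, which the KK females widen.

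In B6, Slc22a26 was lower in males than in females by -6.10 (SE 0.51, adjusted p = 4.97e-05), which makes the female level 68.8-fold that of males. In KK it was lower in males by -3.19 (SE 0.51, adjusted p = 0.00738), a 9.10-fold higher level in females. KK females were lower than B6 females by -2.83 (SE 0.51, adjusted p = 0.00533), a 7.13-fold higher level in B6 females. Since the males lie near the absent level, where array values flatten, the sex differences may be understated. The KK females differed widely among themselves. On the span from the B6 male mean to the B6 female mean, KK female 1 lay at 74.8%, KK female 2 at 59.3% and KK female 3 at 26.6%. Without each of the 12 arrays in turn, the difference between KK and B6 females ranged from -3.48 (without KK female 1) to -2.01 (without KK female 3) and was called each time, with adjusted p up to 0.0249. With KK arrays alone in the fit, the sex difference in KK missed the threshold (adjusted p = 0.0739).

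Slc22a27 followed a similar order at lower values. It read 3.99, 4.07 and 3.86 in KK males, 6.31, 5.31 and 4.47 in KK females, 4.26, 4.13 and 4.08 in B6 males and 7.78, 7.69 and 8.35 in B6 females. All males were within the absent range, and so was KK female 3, while B6 females were far above it. Group means were 3.97 ± 0.10 in KK males, 5.36 ± 0.92 in KK females, 4.16 ± 0.09 in B6 males and 7.94 ± 0.36 in B6 females. The order from high to low was B6 females, KK females, B6 males and KK males. KK females were lower than B6 females by -2.57 (SE 0.34, adjusted p = 0.000576), and B6 males were lower than B6 females by -3.78 (SE 0.34, adjusted p = 7.50e-05). These differences correspond to a level in B6 females 5.96-fold that of KK females and 13.8-fold that of B6 males. Since B6 males and KK female 3 lie within the absent range, both differences may be understated.

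Within KK, Slc22a27 was lower in males by -1.39 (SE 0.34), which missed the threshold at an adjusted p of 0.0584 although the 3 male values lay below the 3 female values. Without KK female 3, the mouse nearest the males, this difference was -1.84 and was called (adjusted p = 0.00384). It was also called after quantile normalization (adjusted p = 0.0425) and with array weights (adjusted p = 0.0453). KK females and B6 males, neighbours in the order, differed by 1.21 with an adjusted p of 0.0521. That difference was called without KK female 3 (1.66, adjusted p = 0.00259) and after quantile normalization (adjusted p = 0.0410). KK males and B6 males differed by -0.18 (95% interval -0.92 to 0.55, adjusted p = 0.839). The 3 KK male values lay below the 3 B6 male values, all within the absent range, and the interval uses a spread pooled over all groups. On the span from B6 male to B6 female mean, the KK females lay at 56.9%, 30.6% and 8.3%, in the same order of mice as for Slc22a26.

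Slc22a28 had the opposite sex difference in B6, higher in males, and its sex difference in KK was not called. It read 9.0, 9.26 and 9.41 in KK males, 9.02, 8.42 and 9.06 in KK females, 8.14, 9.17 and 9.04 in B6 males and 6.74, 4.74 and 7.43 in B6 females. The 3 B6 females lay below the other 9 mice, and B6 female 2 lay close to the absent range. Group means were 9.22 ± 0.21 in KK males, 8.83 ± 0.36 in KK females, 8.78 ± 0.56 in B6 males and 6.30 ± 1.40 in B6 females. KK females were higher than B6 females by 2.53 (SE 0.52, 5.76-fold, adjusted p = 0.0125). The males of the strains differed by 0.44 (95% interval -0.70 to 1.58, adjusted p = 0.736).

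Between B6 males and B6 females Slc22a28 differed by 2.48 (SE 0.52, 5.58-fold) with an adjusted p of 0.0474, just under the threshold. That call was lost without any of the 10 arrays other than B6 female 2 and B6 female 3, with adjusted p-values of 0.0539 to 0.185 and differences of 2.29 to 2.80. Without B6 female 2 the difference was 1.70 and without B6 female 3 it was 3.04, and it was called in both. It was also lost with an intensity trend and robust prior (adjusted p = 0.113) and with the B6 arrays alone (0.189). KK males and KK females differed by 0.39 (95% interval -0.75 to 1.53, adjusted p = 0.739). KK females and B6 males, neighbours in the order, differed by 0.05 (95% interval -1.09 to 1.19). The difference between KK and B6 females ranged from 1.75 to 3.09 without each array in turn and was called each time, but with only the female arrays in the fit it had an adjusted p of 0.0597.

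Slc22a30 and Slc22a29, the other members on chromosome 19, varied little. Slc22a30 read 12.19, 12.38 and 12.54 in KK males, 12.31, 12.11 and 12.23 in KK females, 12.05, 12.31 and 12.22 in B6 males and 11.99, 11.86 and 11.90 in B6 females. All 12 values were high, and the 3 B6 females were the lowest mice. Group means were 12.37 ± 0.17 in KK males, 12.22 ± 0.10 in KK females, 12.19 ± 0.13 in B6 males and 11.92 ± 0.07 in B6 females. No pair of neighbours in this order was called: the adjusted p was 0.465 between KK males and KK females and 0.383 between B6 males and B6 females. KK females were above B6 females by 0.30 (SE 0.10, adjusted p = 0.103), and this difference was called after quantile (adjusted p = 0.0414) or cyclic loess normalization (0.0419).

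Slc22a29 read 5.5, 5.73 and 5.73 in KK males, 6.24, 5.65 and 5.63 in KK females, 5.47, 5.61 and 5.59 in B6 males and 5.69, 5.76 and 5.99 in B6 females. The 12 values span little more than the scatter within the KK females, whose replicate 1 is the highest mouse. No difference of Slc22a29 was called in any comparison. KK females and B6 females differed by 0.03 (95% interval -0.29 to 0.35, adjusted p = 0.978), and B6 males and B6 females by -0.25 (adjusted p = 0.786). Thus of the 5 adjacent genes, Slc22a26 and Slc22a27 were lower in B6 males than in B6 females, Slc22a28 was higher, and Slc22a29 and Slc22a30 were not called. Paralogs of this cluster share sequence, and the files do not say how the probes of each set separate them, so each value is uncertain as to the gene.

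Slc22a7, the Oat2 gene on chromosome 17, was called by strain and in no comparison of the sexes within a strain. It read 9.42, 9.38 and 9.70 in KK males, 9.32, 9.45 and 9.95 in KK females, 8.47, 7.59 and 8.89 in B6 males and 8.67, 8.46 and 8.78 in B6 females. Each of the 6 KK mice lay above each of the 6 B6 mice. Group means were 9.50 ± 0.17 in KK males, 9.58 ± 0.33 in KK females, 8.32 ± 0.66 in B6 males and 8.64 ± 0.16 in B6 females. KK males were higher than B6 males by 1.18 (SE 0.26, 2.27-fold, adjusted p = 0.0214). KK females were higher than B6 females by 0.94 (SE 0.26, 1.92-fold), which missed the threshold at an adjusted p of 0.0577.

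The outcome for Slc22a7 depended on settings in both sexes. The male difference lost its call without KK male 1, 2 or 3 (adjusted p = 0.0650, 0.0530 and 0.0678), with values of 1.22, 1.24 and 1.09, and with only male arrays in the fit (0.0641). The female difference of 0.94 was called without B6 male 2 (adjusted p = 0.00723) or B6 male 3 (0.0261). It was also called under quantile normalization (0.0374), cyclic loess (0.0362), the filter on low values (0.0297), array weights (0.0201), the replicate block (0.0105), the interquartile range as a covariate (0.0394) and with only female arrays (0.0189). The sexes differed by -0.07 in KK (95% interval -0.65 to 0.50, adjusted p = 0.910) and by -0.32 in B6 (95% interval -0.90 to 0.26, adjusted p = 0.934).

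Slc22a5, which encodes the carnitine transporter Octn2, read 7.11, 6.85 and 7.42 in KK males, 7.67, 7.29 and 7.29 in KK females, 7.15, 7.32 and 7.41 in B6 males and 7.52, 7.58 and 7.76 in B6 females. The groups overlap except that the B6 females lay above all males. Group means were 7.13 ± 0.28 in KK males, 7.42 ± 0.22 in KK females, 7.30 ± 0.13 in B6 males and 7.62 ± 0.13 in B6 females. From high to low the order was B6 females, KK females, B6 males and KK males, and no pair of neighbours in it was called. KK females and B6 females differed by -0.20 (95% interval -0.52 to 0.11, adjusted p = 0.578), and KK males and B6 males by -0.17 (95% interval -0.48 to 0.14, adjusted p = 0.620).

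Comparisons across both strain and sex complete the order of levels. Between KK females and B6 males 2 of the 7 genes were called (7.03% of all probe sets), both higher in KK females: Slc22a26 by 3.27 (SE 0.51, adjusted p = 0.00201) and Slc22a7 by 1.26 (SE 0.26, adjusted p = 0.0126). With only these 2 groups in the fit, Slc22a7 lost that call (adjusted p = 0.0650). Between KK males and B6 females 5 of the 7 were called (9.94% of all probe sets). Slc22a26 was lower in KK males by -6.02 and Slc22a27 by -3.97 (adjusted p = 1.23e-05 for each), Slc22a28 was higher by 2.92 (adjusted p = 0.00356) and Slc22a30 was higher by 0.46 (adjusted p = 0.0109). Slc22a5 was lower in KK males by -0.49 (SE 0.14) with an adjusted p of 0.0492, and that call was lost without any of the 10 arrays other than KK female 1 and KK male 3, with adjusted p-values of 0.0538 to 0.187. Slc22a7 was above B6 females in KK males by 0.86 (SE 0.26, adjusted p = 0.0617), a difference that was called without B6 male 2 (adjusted p = 0.00824) or B6 male 3 (0.0281). Among the alternatives other than leaving out an array, it was called under each except the intensity trend with robust prior (0.0791), with adjusted p-values of 0.00308 to 0.0334.

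Whether the strain difference itself depended on sex was tested by the interaction, the KK minus B6 difference in males minus that in females. No member was called by limma, where 0.141% of all probe sets were called. At an unadjusted p under 0.05 there were 3 members, against 1346 of all 21212 probe sets. Slc22a26 had an interaction of 2.92 (SE 0.72, adjusted p = 0.316), Slc22a27 of 2.39 (SE 0.48, adjusted p = 0.112) and Slc22a28 of -2.09 (SE 0.74, adjusted p = 0.673). The widely spread KK females bear on these values. The Slc22a26 interaction was called without KK female 1 (3.57, adjusted p = 0.0413) or without KK female 3 (2.10, adjusted p = 0.0204). The Slc22a27 interaction was called without KK female 1 (2.86, adjusted p = 0.00385) and with array weights (2.60, adjusted p = 0.0286). With all arrays at equal weight it is therefore not shown that the sex difference of these genes is smaller in KK than in B6.

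**Figure D2:**
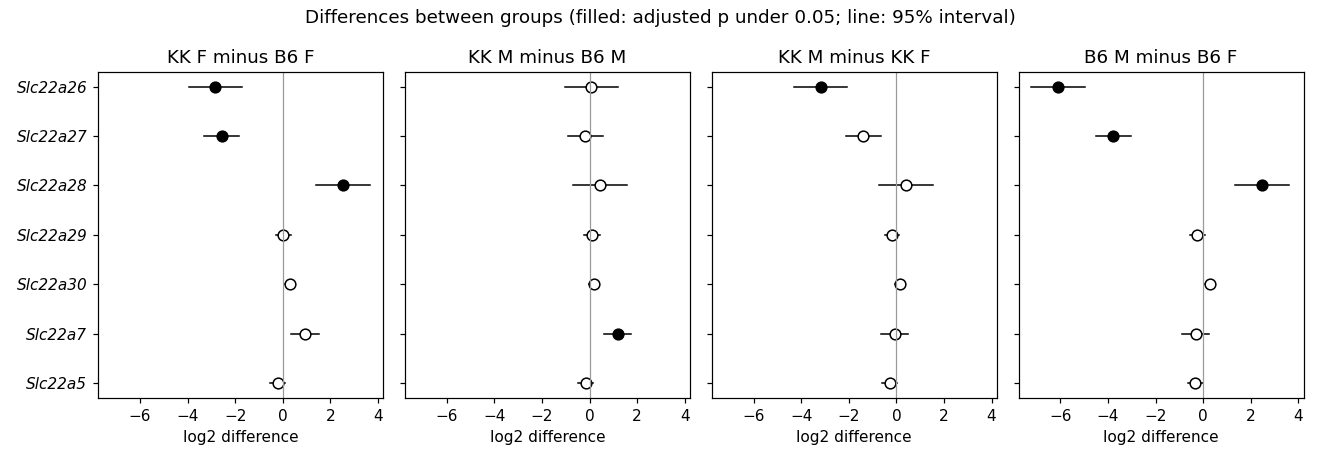
Log2 differences of the 7 measured Slc22 genes in the 4 comparisons of strain within sex and of sex within strain (first-named group minus second); points are differences and bars their 95% intervals from limma, and filled points are called at an adjusted p under 0.05. Slc22a26 and Slc22a27 lie left of 0 in B6 males against B6 females, Slc22a28 lies right of 0, and Slc22a7 lies right of 0 in both strain comparisons.

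Averages over both sexes and over both strains were added after the data were seen. For KK minus B6 over both sexes 5 of the 7 genes were called (11.7% of all probe sets). Slc22a7 was above B6 in KK mice, by 1.06 (SE 0.19, adjusted p = 0.00256), and stayed called without each array in turn. Slc22a28 was higher by 1.48 (adjusted p = 0.0205) and lost its call without B6 male 1 (1.32, adjusted p = 0.0517). Slc22a30 was higher by 0.24 (SE 0.07, adjusted p = 0.0419), a call lost without any of the 9 arrays other than KK female 2, KK male 1 and B6 male 2, with adjusted p-values of 0.0558 to 0.0988, and with array weights (0.17, adjusted p = 0.0933). Slc22a27 was lower by -1.38 (adjusted p = 0.00225) and Slc22a26 by -1.37 (adjusted p = 0.0270), a call lost for Slc22a26 without any of the 3 KK males, the 3 B6 males, B6 female 1 or B6 female 2 (adjusted p = 0.0514 to 0.0650) and with an intensity trend and robust prior (0.0594). For males minus females over both strains 2 were called (3.66% of all probe sets), Slc22a26 at -4.64 and Slc22a27 at -2.59, while Slc22a28 at 1.44 had an adjusted p of 0.0553. The Slc22a28 value was called without B6 female 2 (1.05, adjusted p = 0.0210) or B6 female 3 (1.72, adjusted p = 0.0155). It was also called after quantile (adjusted p = 0.0426) or cyclic loess normalization (0.0408), with the filter on low values (0.0267), array weights (0.0270), the replicate block (0.0406) and the interquartile range as a covariate (1.80, adjusted p = 0.00546).

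For each of the 6 genes called in a comparison of 2 groups, the named genes with the most similar pattern were found by the root mean square difference (RMS) of log2 values over the 12 arrays, each gene centred on its own mean. This choice uses the same arrays, so the likeness is a description. Nearest to Slc22a26 were Sult3a1, a sulfotransferase gene (RMS 0.60), Cyp2b9, a female-predominant cytochrome P450 gene (0.81), and A1bg, a plasma glycoprotein gene (0.92), where the SD of Slc22a26 itself was 2.60. Nearest to Slc22a27 were Cyp2a22, another cytochrome P450 gene (0.41), Sult3a1 (0.60) and Hao2, a peroxisomal hydroxy acid oxidase gene (0.65). The pair Slc22a26 and Slc22a27 differed by an RMS of 1.10.

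The same KK female was lowest for all of these genes. Sult3a1 read 6.79, 5.65 and 3.67 in KK females 1, 2 and 3, against 8.67, 8.44 and 8.61 in B6 females. Cyp2b9 read 11.49, 11.22 and 8.95 in KK females, with a mean of 12.24 in B6 females. A1bg read 11.72, 11.58 and 7.35 in KK females, with a mean of 11.05 in B6 females. Among the KK females replicate 3 thus had the lowest value of Slc22a26, Slc22a27, Sult3a1, Cyp2b9, A1bg, Cyp2a22 and Hao2, and its values lay nearest those of the males. The cause was not tested.

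Nearest to Slc22a28 were Slco1a1, which encodes an organic anion transporter of the basolateral hepatocyte membrane (RMS 0.45), Mup20, a major urinary protein gene (0.51), and C6, a complement gene (0.58), where the SD of Slc22a28 was 1.32. Slco1a1 read 12.12, 12.04 and 12.24 in KK males, 12.14, 11.89 and 12.21 in KK females, 11.51, 11.90 and 11.93 in B6 males and 10.74, 8.93 and 10.35 in B6 females. As with Slc22a28, the B6 females were the lowest group and B6 female 2 the lowest mouse. Mup20 had group means of 13.48 in KK males, 13.0 in KK females, 13.39 in B6 males and 11.04 in B6 females.

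**Figure D3:**
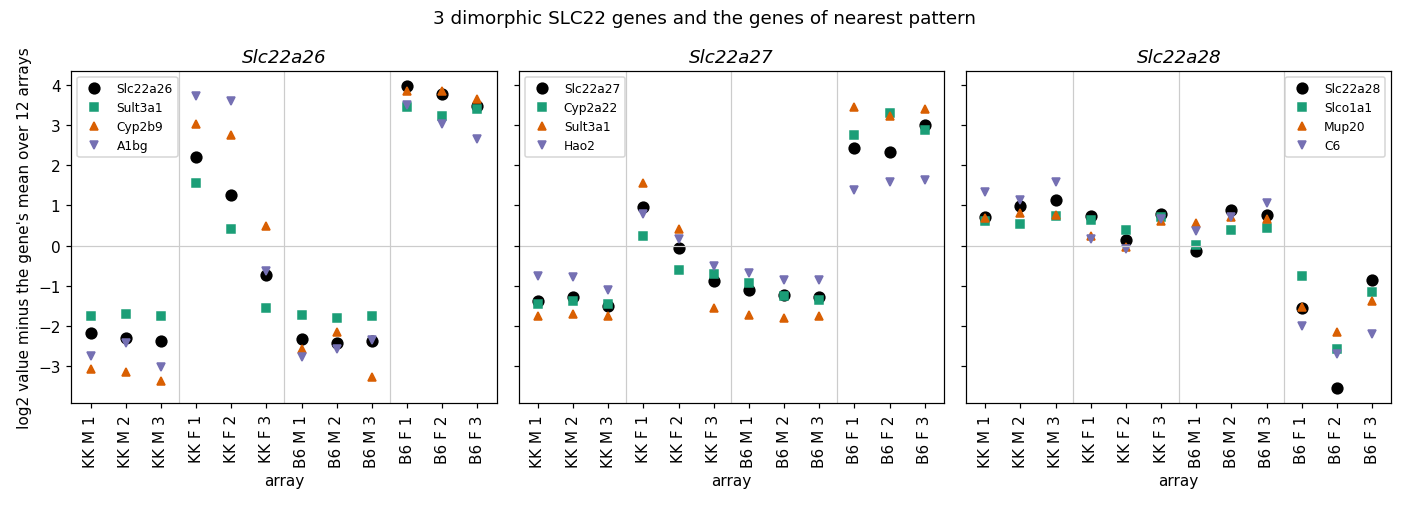
Log2 values of Slc22a26, Slc22a27 and Slc22a28 and of the 3 named genes nearest to each, centred on each gene's mean over the 12 arrays; the horizontal axis gives the arrays by group and the markers give the gene. KK female 3 lies below the other KK females in the Slc22a26 and Slc22a27 panels, and B6 female 2 is the lowest array in the Slc22a28 panel.

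Slc22a7 lay nearest to Sulf2, an extracellular sulfatase gene (RMS 0.26), Atp10d, a phospholipid flippase gene (0.28), and Pm20d1, which encodes an enzyme of N-acyl amino acids (0.29). Pm20d1 had group means of 10.68 in KK males, 10.98 in KK females, 9.79 in B6 males and 9.98 in B6 females. All 3 neighbours were called higher in KK in each sex, by 0.89 to 1.28 in males and 0.99 to 1.17 in females. They were chosen for their likeness to Slc22a7 on the same arrays, so these calls are no separate evidence. Slc22a30 lay nearest to Fem1a, Acsm5 and Ndufb10 and Slc22a5 to Marcksl1, Gimap6 and Abca8b, with RMS values of 0.09 to 0.10, but these genes vary little, with SDs of 0.19 for Slc22a30 and 0.24 for Slc22a5.

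The rest of the family was measured by 16 probe sets of 17 listed genes. By limma none was called in the strain comparisons within each sex or in the sex comparisons within each strain. At an unadjusted p under 0.05 there were 2 between KK and B6 females and 3 between KK and B6 males. There were 2 between KK males and females and 1 between B6 males and females. Of all 21212 probe sets, 3672, 3587, 3325 and 1734 had such a p in these comparisons, in the same order. The list medians were -0.06, 0.06, 0.11 and 0.01 in the same order. Leaving out an array brought calls of 1 to 2 genes: Slc22a23 between females without B6 female 3, Slc22a15 between males of the strains without KK male 3 or B6 female 3 (with Slc22a23 in the second case), and Slc22a20 between KK males and females without B6 male 3. Other settings brought calls of the same 3 genes. Between KK and B6 males Slc22a15 (adjusted p = 0.0523 with all arrays) was called under quantile and cyclic loess normalization, array weights, the replicate block and the interquartile range as a covariate, and Slc22a23 (0.107) under the same settings except the block. Array weights brought calls of Slc22a23 between the females and of Slc22a20 between KK males and females. Slc22a20 was called there under the replicate block too, and the covariate brought a call of Slc22a15 between the females. Across strain and sex, Slc22a23 was higher in KK females than in B6 males by 0.54 (SE 0.10, adjusted p = 0.00677), and Slc22a15 was higher in KK males than in B6 females by 0.56 (SE 0.10, adjusted p = 0.00446). Without B6 male 3, 2 genes were called in the last comparison. Over both sexes Slc22a15 was higher in KK by 0.32 (adjusted p = 0.0127) and Slc22a23 by 0.31 (adjusted p = 0.0143). Both encode family members with few known substrates.

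The genes beside the cluster had no called sex difference in either strain. Slc22a19, next to Slc22a26, averaged 3.71 ± 0.08 in KK males, 3.66 ± 0.01 in KK females, 3.73 ± 0.05 in B6 males and 3.67 ± 0.03 in B6 females, all within or below the absent range. Slc22a8, which encodes Oat3 of kidney and lies past Slc22a30, averaged 5.30 ± 0.19 in KK males, 5.14 ± 0.14 in KK females, 5.26 ± 0.21 in B6 males and 5.09 ± 0.18 in B6 females. Its sex differences were 0.16 in KK (adjusted p = 0.583) and 0.17 in B6 (adjusted p = 0.915). Slc22a4, which lies near Slc22a5 and encodes the ergothioneine transporter Octn1, averaged 6.51 ± 0.19 in KK males, 6.42 ± 0.12 in KK females, 6.74 ± 0.12 in B6 males and 6.57 ± 0.20 in B6 females, with no call.

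Among 12 other hepatic transporters of organic ions, 1 was higher and 4 were lower in KK females than in B6 females, with a list median of -0.20. Slco1a1 was higher by 2.07 (SE 0.34, adjusted p = 0.00273). Slco1a4, another organic anion transporter gene, was lower by -2.32 (SE 0.24, adjusted p = 9.36e-05), and Abcb11, the bile salt export pump gene, was lower by -0.91 (SE 0.07, adjusted p = 1.09e-05). Abcc3, an efflux pump of conjugates, was lower by -0.39 (adjusted p = 0.0202). The count of lower genes was 2 without KK female 2, B6 female 1 or B6 female 3. In KK males against B6 males 2 of the 12 were lower and none higher (list median -0.04): Slco1a4 by -2.91 (adjusted p = 1.69e-05) and Abcb11 by -1.10 (adjusted p = 2.32e-06).

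By sex, 2 of the 12 transporters were higher and 1 was lower in B6 males (list median -0.16). Slco1a1 was higher by 1.77 (SE 0.34, adjusted p = 0.0251) and Abcg2, an efflux pump gene of the canalicular membrane, by 0.96 (SE 0.13, adjusted p = 0.00268). Abcb1a, which encodes a P-glycoprotein, was lower by -1.29 (SE 0.14, adjusted p = 0.000471). Without B6 male 2 or B6 male 3, 1 gene was called higher, and without KK female 2 or B6 male 2, 2 were called lower. The Slco1a1 call was the one lost without B6 male 2 or B6 male 3. It was also lost with an intensity trend and robust prior and with only the B6 arrays (adjusted p up to 0.137). In KK males against KK females 1 was higher, Abcg2 by 0.72 (adjusted p = 0.0178), and 3 were lower: Slco1a4 by -1.58, Abcb1a by -0.85 and Abcb11 by -0.34 (list median -0.03). The Abcg2 call was lost without KK female 1, KK female 2, KK male 1 or KK male 2, and 1 gene was called lower without KK male 2. The Abcb11 call was lost without any of the 3 KK males, KK female 1, KK female 2 or B6 female 1, and after quantile normalization. With only the KK arrays in the fit the Abcg2, Abcb1a and Abcb11 calls were all lost.

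Slc22a5 brings in carnitine, which carries long-chain fatty acids into mitochondria. Of 9 measured genes of carnitine synthesis and use, 1 was lower in KK females than in B6 females and none higher (list median -0.30): Slc25a20, the carnitine-acylcarnitine carrier gene, by -0.51 (SE 0.09, adjusted p = 0.00446). The count of lower genes was 2 without KK female 1, KK male 2, KK male 3 or B6 male 3 and 4 without B6 female 1. In KK males against B6 males 2 were lower and none higher (list median -0.13): Slc25a20 by -0.46 (SE 0.09, adjusted p = 0.0103) and Crot, the peroxisomal carnitine octanoyltransferase gene, by -0.38 (SE 0.10, adjusted p = 0.0425). That count was 0 without KK male 1 and 1 without KK male 2, B6 female 2, B6 female 3, B6 male 2 or B6 male 3. The Crot call was lost without any of the 8 arrays other than KK female 1, KK female 3, KK male 3 and B6 male 1 (adjusted p up to 0.167). Without KK female 2 or B6 female 1, Bbox1 was called in its place. Quantile or cyclic loess normalization and a fit of only the male arrays also lost the Crot call. None of the 9 was called between the sexes of either strain by limma. At an unadjusted p under 0.05 there were 2 in KK and 3 in B6, against 3325 and 1734 of all 21212 probe sets. Without B6 female 1, 1 of the 9 was called lower between B6 males and females. Over both sexes 5 of the 9 were lower in KK and none higher (list median -0.22), among them Slc25a20 by -0.49, Crot by -0.35, Bbox1, the gene of the last step of carnitine synthesis, by -0.29, and Cpt1a, which encodes the carnitine palmitoyltransferase of the outer mitochondrial membrane, by -0.36. That count was 3 without KK male 1.

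Of 13 measured regulators of dimorphic or transporter genes in liver, Bcl6, a repressor that is known to be higher in male liver and acts against STAT5, was called in both strain comparisons. It read 7.27, 7.85 and 6.92 in KK males, 7.27, 7.32 and 7.56 in KK females, 9.03, 8.95 and 9.39 in B6 males and 6.76, 6.30 and 6.24 in B6 females. KK males and KK females overlapped between the B6 males above and the B6 females below. KK males were lower than B6 males by -1.78 (SE 0.21, adjusted p = 0.000339), and KK females were higher than B6 females by 0.95 (SE 0.21, adjusted p = 0.0191), a call lost without KK female 3, B6 female 2 or B6 female 3. B6 males were higher than B6 females by 2.69 (SE 0.21, adjusted p = 3.23e-05), while KK males and KK females differed by -0.04 (SE 0.21, adjusted p = 0.942). The interaction was -2.73 (SE 0.30, adjusted p = 0.00264).

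Other regulators moved with sex or strain. Esr1, the estrogen receptor gene, was lower in males by -1.33 in KK (SE 0.12, adjusted p = 0.000111) and by -1.33 in B6 (SE 0.12, adjusted p = 7.50e-05). Stat5b, which relays the growth hormone signal, was lower in KK males than in KK females by -0.51 (SE 0.08, adjusted p = 0.00552) and than in B6 males by -0.41 (SE 0.08, adjusted p = 0.00935). Onecut1, the gene of HNF6, was higher in KK males than in B6 males by 1.58 (SE 0.31, adjusted p = 0.0108), a call lost without B6 male 3. Counted over the list, 1 regulator was higher and none lower in KK females against B6 females (list median 0.09), and 1 was higher and 2 lower in KK males against B6 males (-0.02). None was higher and 2 were lower in KK males against KK females (-0.17), and 1 was higher and 1 lower in B6 males against B6 females (-0.02). The count of lower genes was 1 between KK and B6 females without KK female 1 or B6 female 3, and 2 between B6 males and females without KK female 1 or KK female 3. Whether any of these levels bears on the Slc22 genes was not tested.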

How the data were processed

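Liver RNA of 12 mice, 3 per strain and sex, was measured with 1 Affymetrix whole-transcript array per mouse, from 300 ng of total RNA. The deposited values are log2 expression, 1 per probe set and array. RMA and the affy package are named in the submitters' processing notes, with no versions. Depth has no meaning for arrays, and their number limits the precision.

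The platform's table gave exactly 1 symbol to 18786 probe sets, several to 6 and none to 2420, which stay unnamed. All 12 arrays and all 21212 probe sets were fitted in R 4.3.3 with limma 3.58.1 (lmFit, eBayes; prior of 3.99, total of 11.99 degrees of freedom), with 1 mean per group. The labels do not say that the 3 mice of a group came from separate litters, and p-values measure the spread between these mice. Adjusted p-values are limma's throughout. A group mean at or under 4.66, the top of the Y-linked genes in females, counts as near the absent level. Scanner files were not used here, so background correction was not repeated. The pipeline was tested on simulated data.

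Promoters were aligned with Biopython 1.88. The genes and lists were chosen with earlier results of these data known. All members, each called gene of the remaining family, up to 4 genes per pathway list with the smallest adjusted p, and the 3 genes nearest each called member are named. Beyond these, Slc22a19, Slc22a8, Slc22a4 and Slc22a20 were named after their values were seen. Alternatives were quantile and cyclic loess normalization, only probe sets above the median mean, weights per array, an intensity trend with robust prior, a block for the replicate number, the interquartile range as a covariate, fits of only 2 groups, and fits without each array. Same-numbered mice of different groups correlated above 0.1 in 9 of 18 pairs (-0.36 to 0.48), which misses the criterion of every pair, so the numbers were not taken to pair mice.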

Additional observations from a re-analysis of the deposited data

Results flagged for a closer look

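The strain difference of Bcl6 ran in opposite directions in the sexes. It was -1.78 between KK males and B6 males and 0.95 between KK females and B6 females (log2, n = 3 mice per group). The test of the difference between the sexes, limma's interaction, gave -2.73 (SE 0.30, adjusted p = 0.00264), and it was called without each array in turn, between -2.98 and -2.52. All 3 KK males lay below all 3 B6 males, and all 3 KK females lay above all 3 B6 females. The cause was not tested.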

How the results depend on the processing

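Of the members' differences recomputed under the alternatives, 1105 kept direction and side of the threshold, 50 lost and 39 gained a call, and 27 changed sign, none of them called. The causes were not tested, except that fits with only 2 groups, or without an array, use fewer arrays. The limits are 3 mice per group, levels of Slc22a26 and Slc22a27 near the absent range in males, and paralogs that probes may share.

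The number of members called moved by over 1.5 times in these cases. Between KK and B6 females it was 5 after quantile and 5 after cyclic loess normalization, against 3. Between KK and B6 males it was 0 with only these groups, against 1. Between KK males and females it was 2 after quantile normalization, 2 with array weights and 0 with only these groups, against 1. Between KK females and B6 males it was 1 with only these groups, against 2. The interaction had 1 call with array weights, against 0. Over both strains, males minus females gave 4 with the interquartile range as a covariate, against 2.

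Without each array in turn the counts were 3 to 4 between KK and B6 females, 0 to 1 between KK and B6 males, 1 to 2 between KK males and females, 2 to 3 between B6 males and females, 2 to 3 between KK females and B6 males, 4 to 5 between KK males and B6 females, 0 to 2 for the interaction, 2 to 5 for KK minus B6 over both sexes and 2 to 3 for males minus females over both strains.

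Signs changed as follows. With array weights Slc22a29 gave 0.00 between KK and B6 males and -0.03 for the interaction. With the interquartile range as a covariate, Slc22a7 gave 0.10 between KK males and females, and between KK females and B6 males Slc22a28 gave -0.20 and Slc22a30 -0.01. Without each array in turn, values between KK females and B6 males ran from -0.28 to 0.25 for Slc22a28, from -0.05 to 0.08 for Slc22a30 and from -0.01 to 0.19 for Slc22a5. Slc22a29 ran from -0.17 to 0.13 between KK and B6 females, from -0.29 to 0.02 between KK males and females, from -0.04 to 0.11 for KK minus B6 over both sexes and from -0.03 to 0.27 for the interaction. Slc22a7 ran from -0.61 to 0.04 between B6 males and females, from -0.20 to 0.11 between KK males and females and from -0.12 to 0.53 for the interaction. The Slc22a5 interaction ran from -0.11 to 0.17.

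The replicate number as a block, which was not taken to pair mice, gave 4 calls between KK and B6 females, 6 between KK males and B6 females and 3 for males minus females over both strains, against 3, 5 and 2, and equal counts elsewhere. An array correlated best with its own number in 20 of 36 pairings with another group, where 12 would do so if the numbers carried no information, a hint from the data that some same-numbered arrays share a deviation.

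Over all probe sets, array weights gave 2423 calls between KK and B6 males (1092 without weights), 2058 between KK males and females (460), 363 between B6 males and females (219), 4586 between KK males and B6 females (2108), 77 for the interaction (30) and 1701 for males minus females (777). The interquartile range as a covariate gave 2329 between KK and B6 females (1378), 1673 between KK and B6 males, 392 between B6 males and females and 2450 between KK females and B6 males (1491). Only the KK arrays gave 190 between KK males and females. Leaving out an array gave 905 between KK and B6 females and 921 between KK females and B6 males without KK female 1. It gave 662 and 711 between KK and B6 males without KK male 1 or B6 male 3, and 160, 201 and 193 between KK males and females without KK female 1, KK male 1 or KK male 2. It gave 142 between B6 males and females without B6 male 3, 1393 between KK males and B6 females without B6 female 3, and 19 for the interaction without KK male 2 or B6 male 3.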
